A study of Mus musculus with 8 samples.

Results

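A set of 10 genes that mark stromal cells and the transition of epithelial cells toward a mesenchymal state were followed in cultured mouse kidney tubules, with and without a pulse of the growth factor GDNF. They were *Vim*, *Acta2*, *Tagln*, *Fn1*, *Postn*, *Pdgfra*, *Pdgfrb*, *Twist1*, *Snai2* and *Zeb1*. The 10 genes were chosen by symbol as markers of this programme, and all 10 were among the 24063 gene symbols of the deposited tables, where they were represented by 20 of 33068 transcripts.

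In an epithelial-to-mesenchymal transition, transcription factors of the Snail, ZEB and Twist families bind E-box sequences and repress epithelial genes such as *Cdh1*, while the cell takes up intermediate filaments of vimentin and secretes fibronectin. In the kidney, *Pdgfra* and *Pdgfrb* mark interstitial fibroblasts, pericytes and mesangial cells, and *Acta2* and *Tagln* mark smooth muscle and the contractile myofibroblasts of fibrosis. Many of the same genes are also expressed by cultured cells that lie on a stiff or injured surface.

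Tubuloids are structures that grow in Matrigel from primary kidney tubule fragments. All 8 cultures were recorded as coming from kidneys of mice at postnatal day 7 to 10. The paper's methods instead give postnatal day 4 to 7 for its kidney preparations. The mice had the genotype Pkd2fl/fl Pax8rtTA TetOCre mTmG. They carried floxed alleles of the cyst gene *Pkd2*, a doxycycline-dependent Cre whose activator is driven by the tubule gene *Pax8*, and a membrane-colour Cre reporter. Both groups carried these alleles, and doxycycline is not named for these cultures. The 4 GDNF cultures, numbered 6, 12, 17 and 22, received GDNF in growth-factor-enriched medium for 24 h, and the 4 control cultures, numbered 3, 7, 14 and 21, received the medium alone. RNA was taken after 7 days of culture from whole tubuloids, so that epithelial and stromal RNA were measured together, and fewer cells of a type and less RNA per cell cannot be told apart. The sources describe separate cultures but not whether each came from a different animal, so the p-values measure the spread between these cultures.

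Each culture held 72991721 to 97490625 transcript counts. The smallest number of counts behind any value of the 10 genes was 370, for *Twist1* in GDNF culture 17, so counting error was small beside the spread between cultures. Cultures differed in coverage by transcript length. Transcripts shorter than 2000 bases took 43.1% to 54.9% of counts in the controls, with the highest share in culture 3, and 36.9% to 42.8% after GDNF, and these ranges did not overlap. The median log2 fold change after GDNF was -0.27 for 5692 tested genes with such short transcripts and 0.34 for 2596 genes with transcripts of at least 5000 bases. A fit with offsets for transcript length was added after seeing the data, and its values for the 10 genes stand with theirs or in the closing section. *Xist* RNA marked control cultures 3 and 7 and GDNF cultures 6 and 12, and Y-linked RNA marked the others, while control culture 3 and GDNF culture 6 had both above 1 TPM.

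The sequences that the results return to are 2 alternative exons of *Fn1* and the proximal promoter of *Acta2*. *Fn1* lies on chromosome 1 of GRCm38, from 71585473 to 71653280 on the minus strand. Its EDB and EDA exons each encode an extra fibronectin type III domain, which plasma fibronectin of the liver lacks and which fibroblasts and embryonic tissues include in the matrix form. The EDB exon, exon 25 of 46 in the GENCODE M21 annotation, spans chr1:71613763-71614035, and the EDA exon, exon 33 of 46, spans chr1:71603660-71603929. Both are coding. Capitals mark the exon and lower case the 12 transcript bases on either side.
Fn1 EDB exon: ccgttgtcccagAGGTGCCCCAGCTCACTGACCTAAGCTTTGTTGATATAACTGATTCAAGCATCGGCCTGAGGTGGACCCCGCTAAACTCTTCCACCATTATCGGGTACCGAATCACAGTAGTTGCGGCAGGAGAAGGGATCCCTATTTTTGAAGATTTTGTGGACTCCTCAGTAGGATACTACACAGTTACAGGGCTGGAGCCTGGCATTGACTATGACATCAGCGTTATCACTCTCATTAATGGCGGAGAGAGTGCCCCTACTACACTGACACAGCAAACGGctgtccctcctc
Fn1 EDA exon: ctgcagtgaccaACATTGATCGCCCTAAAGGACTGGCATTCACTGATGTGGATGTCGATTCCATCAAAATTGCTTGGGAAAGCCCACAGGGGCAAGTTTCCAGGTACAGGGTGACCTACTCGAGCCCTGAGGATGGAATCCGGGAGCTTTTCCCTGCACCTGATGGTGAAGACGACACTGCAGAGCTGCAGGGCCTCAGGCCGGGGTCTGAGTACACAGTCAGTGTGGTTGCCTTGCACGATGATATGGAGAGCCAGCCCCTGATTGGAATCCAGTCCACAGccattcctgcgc

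*Acta2*, the gene of smooth muscle alpha-actin, spans chr19:34240336-34255585 on the minus strand, and the 250 bases before a RefSeq start at base 34255373, chr19:34255374-34255623 on GRCm38.p6, are shown. That start lies inside the wider gene span just given. Serum response factor binds CArG boxes, which start with CC, hold 6 A or T bases and end with GG, and such boxes are known in the promoters of contractile genes. No box of that exact form was present on either strand. Capitals mark 2 boxes with 1 G or C in the core, which begin 84 and 34 bases before the start at base 34255373.
Acta2 promoter: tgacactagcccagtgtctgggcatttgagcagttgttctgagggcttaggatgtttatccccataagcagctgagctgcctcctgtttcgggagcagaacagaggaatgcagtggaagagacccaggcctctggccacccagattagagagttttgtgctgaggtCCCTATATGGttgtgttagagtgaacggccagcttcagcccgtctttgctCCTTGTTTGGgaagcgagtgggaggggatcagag

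At least 1 box of this relaxed form was found in 8.59% of 32851 promoter windows of the same length, at least 2 in 0.670%, and the exact form in 1.47%. Windows for *Vim*, *Pdgfra*, *Twist1* and *Postn*, which has 2, held neither form. The E-box CACCTG, read on both strands as CACCTG or CAGGTG, was in none of these windows or that of *Acta2*, and in 17.2% of all windows. *Tagln*, *Snai2*, *Fn1*, *Pdgfrb* and *Zeb1* had no promoter entry.

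All 10 genes were expressed in every culture and all passed the low-count filter. In TPM (a level scaled for transcript length and library, so that genes can be compared), the mean over the 8 cultures was highest for *Tagln* at 477 TPM, followed by *Acta2* at 351 TPM, *Vim* at 268 TPM, *Fn1* at 77.6 TPM, *Pdgfrb* at 47.1 TPM and *Snai2* at 38.6 TPM. *Postn* at 18.5 TPM, *Pdgfra* at 8.64 TPM, *Zeb1* at 7.93 TPM and *Twist1* at 6.48 TPM were lower. Among neighbours in this order, the ranges of *Vim* and *Fn1* were the only pair that did not overlap. *Tagln* was nevertheless above *Acta2*, and *Fn1* above *Pdgfrb*, in all 8 cultures, whereas *Zeb1* was above *Twist1* in 4 of 8.

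None of the 10 genes was called between GDNF and control by edgeR at an adjusted p of 0.05, against a background of 0% of 16557 genes (the smallest adjusted p of any gene was 0.167). At an unadjusted p of 0.05 the count was also 0 of 10, beside 22.1% of all genes tested, and the smallest unadjusted p among the 10 was 0.105, for *Fn1*. DESeq2 called 1346 genes (8.13% of the 16557), but again none of the 10, of which *Twist1* was given no adjusted p by DESeq2. On simulated data edgeR recovered 20.5% of 2-fold changes, so the lack of a call does not exclude a change of that size. Of the DESeq2 calls on the same data, 31.4% were genes that had not been changed, so its calls here are read with caution. In no member did the groups separate, either in TPM (21.2% of all genes did) or in CPM (counts scaled to library size with TMM factors, 13.2%). The log2 fold change was above 0 for 3 genes and below 0 for 7, with a median of -0.073 beside 0.033 over all genes tested, while mean TPM was higher after GDNF for 8 of 10. Mean TPM shifted upward by a median of 0.40 on the log2 scale over 13698 expressed genes, and CPM by 0.0078, so the TPM values below are best read against that shift.

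**Figure D1:**
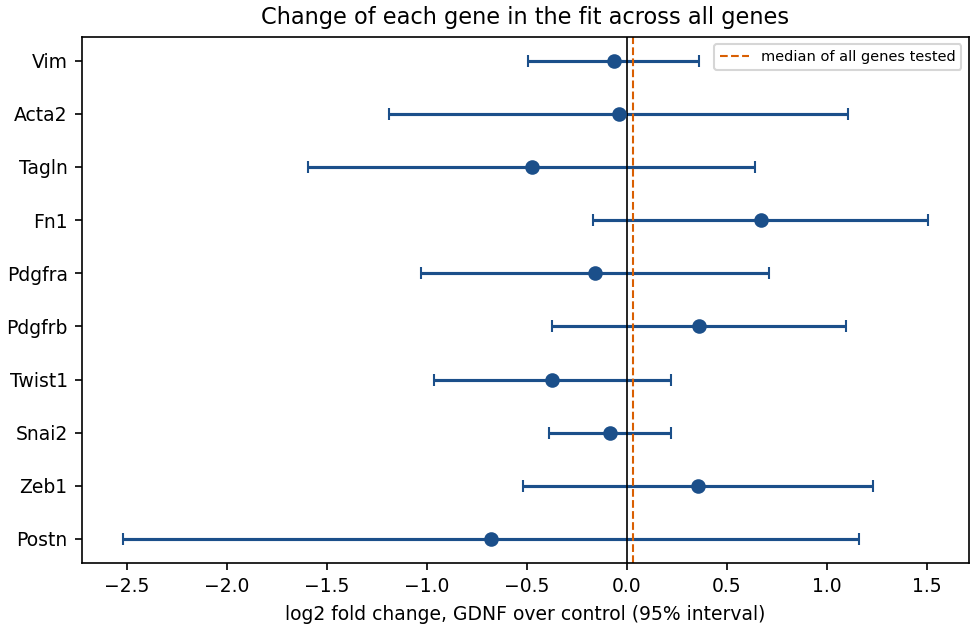
Log2 fold change of the 10 genes, GDNF over control, from edgeR on TMM-scaled counts. Points are estimates, bars are 95% intervals, the solid line is 0 and the dashed line is the median of all genes tested. Every interval includes 0, and those of *Snai2* and *Vim* are the shortest.

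*Vim* encodes vimentin, the intermediate filament of mesenchymal cells. Its level was 172 TPM in control culture 3, 223 in culture 7, 333 in culture 14 and 223 in culture 21, and 212 TPM in GDNF culture 6, 324 in culture 12, 338 in culture 17 and 318 in culture 22. GDNF culture 6 lay within the controls and the other GDNF cultures lay close to control culture 14, so the groups overlapped. The means were 238 ± 67.6 and 298 ± 58.1 TPM (SD, n = 4 each; exact permutation test, two-sided, p = 0.343; the smallest p that 4 against 4 allows is 0.0286). On scaled counts the log2 fold change was -0.065 (SE 0.19, 95% interval -0.49 to 0.36, edgeR adjusted p = 0.866), an interval shorter than that of any other of the 10 genes except *Snai2*. The sign of so small a value turned in 6 of 19 alternatives.

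*Acta2* was measured at 92.2 TPM in control culture 3, 237 in culture 7, 644 in culture 14 and 279 in culture 21, and at 119 TPM in GDNF culture 6, 430 in culture 12, 483 in culture 17 and 522 in culture 22. Control culture 14 exceeded every GDNF culture, and the lowest cultures of the groups, 3 and 6, were close to each other. *Tagln*, which encodes the actin-binding protein transgelin, followed the same pattern, with 188, 388, 1110 and 295 TPM in control cultures 3, 7, 14 and 21, and 174, 511, 595 and 557 TPM in GDNF cultures 6, 12, 17 and 22. The log2 fold changes were -0.040 for *Acta2* (SE 0.51, 95% interval -1.19 to 1.11, edgeR adjusted p = 0.972) and -0.47 for *Tagln* (SE 0.50, 95% interval -1.59 to 0.64, edgeR adjusted p = 0.595). Without control culture 14 these values were 0.57 and 0.25. The log2 fold change of *Tagln* changed sign in that alternative alone, and that of *Acta2*, close to 0, in 5 of 19 alternatives. With the length offsets the log2 fold changes were -0.040 for *Acta2* and -0.21 for *Tagln*.

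**Figure D2:**
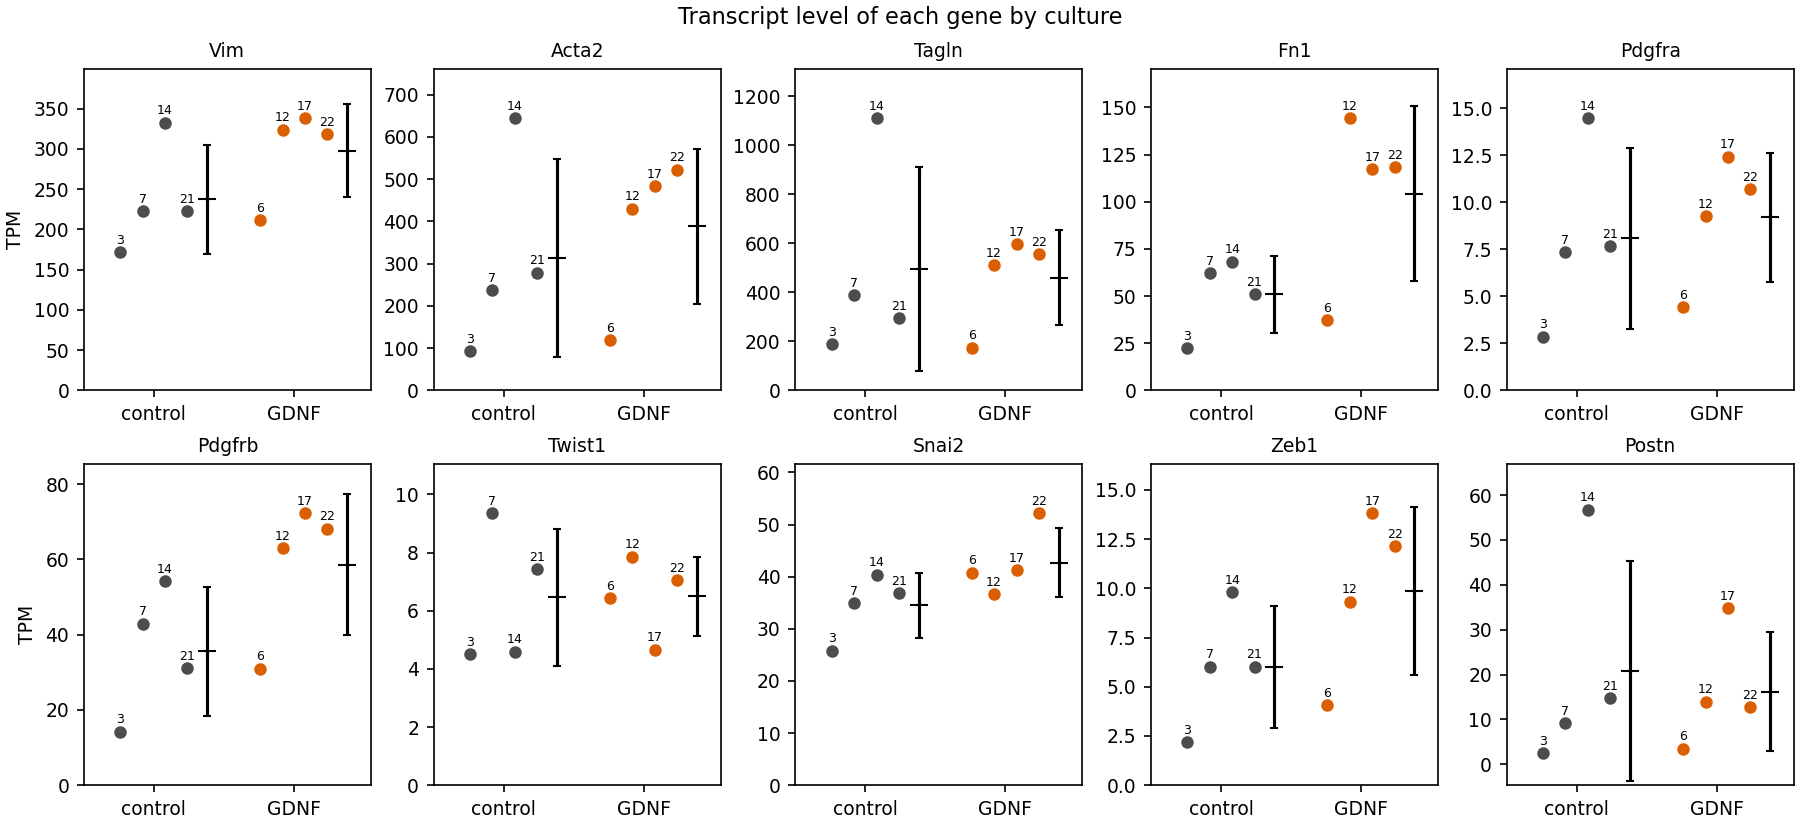
Level of each of the 10 genes in TPM (vertical axes, each with its own scale) in the 4 control and 4 GDNF cultures, numbered as in the text. Points are cultures and bars are group means with the SD. Control culture 14 is the highest control for 9 genes, all but *Twist1*, and among all 8 cultures it stands highest for *Acta2*, *Tagln*, *Pdgfra* and *Postn*.

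*Fn1*, the gene of the matrix glycoprotein fibronectin, had the largest positive fold change of the 10. It stood at 22.5 TPM in control culture 3, 62.1 in culture 7, 68.2 in culture 14 and 50.9 in culture 21, and at 37.1 TPM in GDNF culture 6, 144 in culture 12, 117 in culture 17 and 119 in culture 22. Thus 3 of the 4 GDNF cultures were above every control, and culture 6 was below 3 controls. The means were 50.9 ± 20.3 and 104 ± 46.5 TPM (SD, n = 4 each; exact permutation test, two-sided, p = 0.114), and the log2 fold change was 0.67 (SE 0.38, 95% interval -0.17 to 1.51, edgeR unadjusted p = 0.105, adjusted p = 0.311). On the log2 CPM scale the difference was 0.47 between the *Xist* cultures and 0.70 between the Y-linked cultures, with 2 per group in each. Without GDNF culture 6 the log2 fold change was 0.94 (unadjusted p = 0.00721, adjusted p = 0.178), and with the length offsets it was 0.22 (adjusted p = 0.744). The *Fn1* transcript has 8425 bases, the longest of the 10.

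The deposited counts of 7 *Fn1* transcripts differ by the reads that lie wholly inside an alternative segment, and these differences were taken after the data were seen as a measure of EDB, EDA and the variable V region. Reads inside the EDB exon, of 273 bases as printed above, made up 0.469% of the reads of the longest transcript in control culture 3 (95% Wilson interval 0.361% to 0.610%, for counting error only), 1.04% in culture 7, 1.09% in culture 14 and 0.801% in culture 21. The GDNF cultures 6, 12, 17 and 22 had 0.820%, 1.01%, 1.28% and 1.12%. The groups overlapped (0.850% ± 0.284 against 1.06% ± 0.193, SD, n = 4 each; exact permutation test, two-sided, p = 0.286). The difference of 0.209 percentage points was 0.0817 without control culture 3.

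For the EDA exon, of 270 bases, the shares in control cultures 3, 7, 14 and 21 were 1.48%, 1.45%, 1.81% and 1.73%, and those in GDNF cultures 6, 12, 17 and 22 were 1.41%, 1.21%, 1.43% and 1.77%. These also overlapped (difference -0.165 percentage points; exact permutation test, two-sided, p = 0.229). Without GDNF culture 22 they did not, and the difference was -0.270 (exact permutation p = 0.0857). Both exons were therefore read in every culture, with 55 to 619 reads inside EDB and 174 to 736 inside EDA.

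The V region, a stretch near the 3′ end that differs by 360 bases between transcripts, gave 2.06%, 1.61%, 1.73% and 1.60% in control cultures 3, 7, 14 and 21, and 1.59%, 1.43%, 1.31% and 1.20% in GDNF cultures 6, 12, 17 and 22. All GDNF cultures were below all controls, though culture 6 and control culture 21 were nearly equal. The mean was 1.75% ± 0.217 in controls and 1.38% ± 0.168 after GDNF (SD, n = 4 each; exact permutation test, two-sided, p = 0.0286, the smallest this design allows; Benjamini-Hochberg adjusted p over the 3 segments 0.0857). The share of counts in short transcripts also separated the groups, in the same direction, and its part in the V region result was not tested.

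**Figure D3:**
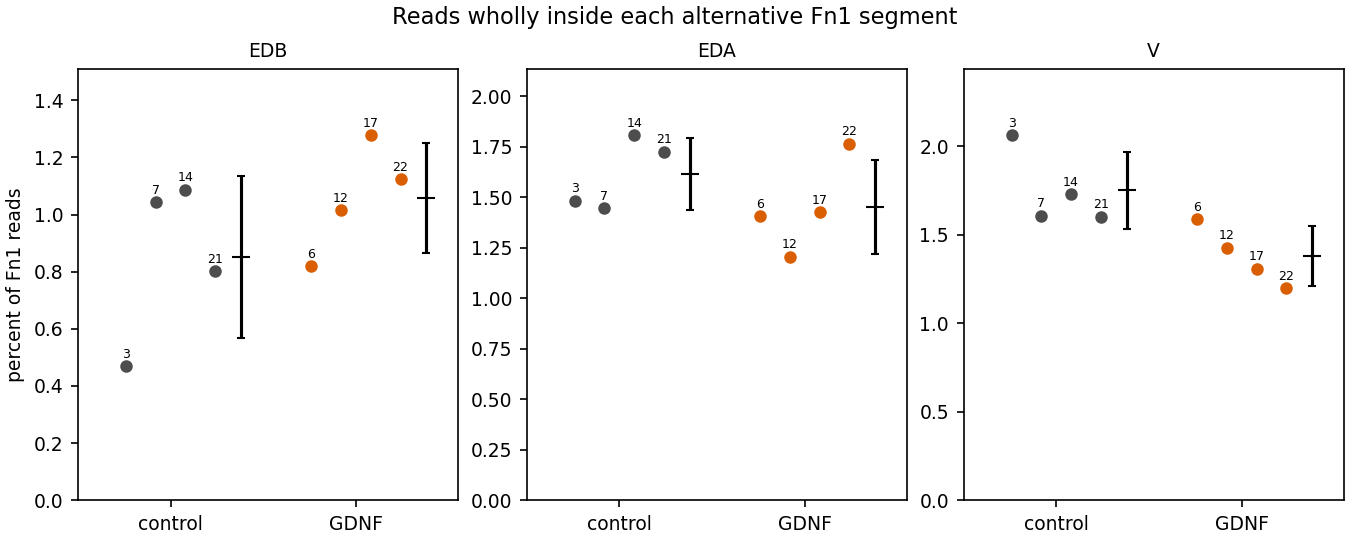
Reads inside the EDB, EDA and V segments of *Fn1* as a percentage of the reads of its longest transcript (vertical axes) in each culture. Points are cultures, numbered as in the text, and bars are means with the SD. The groups overlap for EDB and EDA, and for V all GDNF cultures lie below all controls.

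*Postn* encodes periostin, a matrix protein of fibroblasts and of injured kidney, and it varied most. It was listed at 2.42 TPM in control culture 3, 9.18 in culture 7, 56.7 in culture 14 and 14.7 in culture 21, and at 3.49 TPM in GDNF culture 6, 13.95 in culture 12, 34.7 in culture 17 and 12.7 in culture 22. The highest culture exceeded the lowest 18.9-fold in CPM, a range that only 2.84% of 16020 genes surpassed, where the median gene ranged 2.25-fold. The log2 fold change of -0.68 (SE 0.83, 95% interval -2.52 to 1.16, edgeR adjusted p = 0.648) became 0.57 without control culture 14 and was -0.78 with the length offsets.

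The receptors for platelet-derived growth factors were both present. *Pdgfra*, the alpha receptor of fibroblasts and of their progenitors, was at 2.85, 7.34, 14.5 and 7.65 TPM in control cultures 3, 7, 14 and 21 and at 4.41, 9.24, 12.4 and 10.7 TPM in GDNF cultures 6, 12, 17 and 22. The groups overlapped (log2 fold change -0.16, SE 0.39, 95% interval -1.03 to 0.71, edgeR adjusted p = 0.838). The log2 fold change was -0.48 with the length offsets (edgeR adjusted p = 0.493) and 0.27 without control culture 14. *Pdgfrb*, the beta receptor of pericytes and mesangial cells, was at 14.2, 42.9, 54.2 and 31.0 TPM in the controls and 30.9, 63.0, 72.3 and 68.1 TPM after GDNF, in the same order of cultures. In TPM, GDNF cultures 12, 17 and 22 were above every control and culture 6 was not, whereas in CPM culture 17 alone, at 392, exceeded the highest control, culture 14 at 365 (TPM means 35.6 ± 17.1 against 58.6 ± 18.8 TPM, SD, n = 4 each; exact permutation test, two-sided, p = 0.143). The log2 fold change was 0.36 (SE 0.33, 95% interval -0.37 to 1.10, edgeR adjusted p = 0.530) and 0.080 with the length offsets, and it ran from 0.15 without control culture 3 to 0.62 without control culture 14.

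Among their ligands, *Pdgfd*, which activates the beta receptor, had a log2 fold change of -0.82 (edgeR unadjusted p = 0.0176, adjusted p = 0.170) and was called by DESeq2. *Pdgfb* and *Pdgfc* had values of -0.26 and 0.16, and all 4 ligand genes were expressed. With 1 of 4 ligands below an unadjusted p of 0.05, downward, the background in that direction was 12.9% of genes.

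The 3 transcription factors behaved unlike each other. *Snai2*, which encodes the E-box repressor Slug, was at 25.8, 35.0, 40.4 and 36.8 TPM in control cultures 3, 7, 14 and 21 and at 40.8, 36.6, 41.2 and 52.2 TPM in GDNF cultures 6, 12, 17 and 22, with overlap. In CPM its highest and lowest cultures differed 1.37-fold and 94.9% of genes had a larger range, so it was the steadiest of the 10 (log2 fold change -0.081, SE 0.14, 95% interval -0.39 to 0.22, edgeR adjusted p = 0.752).

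*Twist1*, a basic helix-loop-helix factor, was at 4.51, 9.36, 4.59 and 7.42 TPM in the controls and 6.43, 7.86, 4.66 and 7.04 TPM after GDNF, in the same order. Control culture 14, the highest control for the other 9 genes, was here among the lowest. The log2 fold change was -0.37 (SE 0.27, 95% interval -0.96 to 0.22, edgeR adjusted p = 0.423), -0.14 with the length offsets and -0.17 without control culture 7. *Zeb1*, a zinc-finger repressor of *Cdh1*, was at 2.19, 6.02, 9.82 and 6.02 TPM in the controls and 4.08, 9.33, 13.8 and 12.1 TPM after GDNF, so that 2 GDNF cultures exceeded every control in TPM and 1 (culture 17, 40.2 against at most 35.5) in CPM. Its log2 fold change of 0.36 (SE 0.39, 95% interval -0.52 to 1.23, edgeR adjusted p = 0.609) was 0.070 with the length offsets, 0.13 without control culture 3, 0.14 without GDNF culture 17, 0.60 without GDNF culture 6 and 0.68 without control culture 14. Of the 4 genes with transcripts of at least 5000 bases, 3 (*Fn1*, *Pdgfrb* and *Zeb1*) were the 3 genes with fold changes above 0, and *Pdgfra*, which moved further below 0 with the length offsets, was the exception.

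A total of 6 pairs of genes with like roles were compared across the 8 cultures in log2 CPM, with exact permutation tests over all orders and Benjamini-Hochberg adjustment over the 6 pairs. *Acta2* and *Tagln* moved together (Pearson r = 0.919, permutation p = 0.000521, adjusted p = 0.00313; Spearman rho = 0.952, permutation p = 0.00114), and so did *Pdgfra* and *Pdgfrb* (r = 0.855, permutation p = 0.00191, adjusted p = 0.00573; rho = 0.952, permutation p = 0.00114). For each pair, the 2 cultures farthest from the median of its first gene were then left out, so the omitted cultures differed by pair. Without control culture 3 and GDNF culture 6, r was 0.902 for the contractile pair (adjusted permutation p = 0.0583). Without control culture 14 and GDNF culture 6, r was 0.915 for the receptors (adjusted permutation p = 0.00833). Control culture 3, low for both receptors, was kept there. The cultures of 1 kind, with *Xist* or with Y-linked RNA, were too few, at 4 each, for a correlation.

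The other 4 pairs did not pass by r in log2 CPM. On log2(TPM + 1), *Zeb1* with *Vim* had r = 0.957 (adjusted permutation p = 0.00141) and *Vim* with *Fn1* r = 0.908 (adjusted permutation p = 0.00298). In log2 CPM, *Zeb1* and *Vim* had r = 0.695 (permutation p = 0.0542, adjusted p = 0.108) with rho = 0.810 (permutation p = 0.0218, adjusted p = 0.0436), *Fn1* and *Postn* r = 0.627 (permutation p = 0.0987; rho = 0.595, permutation p = 0.132), *Vim* and *Fn1* r = 0.584 (permutation p = 0.127; rho = 0.690, permutation p = 0.0694), and *Twist1* and *Snai2* r = -0.192 (permutation p = 0.665; rho = -0.333, permutation p = 0.428). The value for *Fn1* and *Postn* rested on 2 cultures, since r was -0.062 without control culture 3 and GDNF culture 6. Over all pairs of the 10 genes, as a description, r was highest for *Acta2* with *Pdgfra* at 0.974 and for *Pdgfra* with *Postn* at 0.972. These exceeded the r of *Acta2* with *Tagln* and of *Pdgfra* with *Pdgfrb*. So did *Pdgfrb* with *Zeb1* at 0.957 and *Vim* with *Tagln* at 0.943, so a high r was not particular to the pairs of like role. *Twist1* had a negative r with each of the other genes, down to -0.492 with *Vim*, and *Snai2* stayed between -0.227 and 0.348.

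Outside the 10 genes, those with the most similar pattern over the 8 cultures, among 11451 genes of at least 5 CPM, are given as a description for *Vim*, *Acta2* and *Pdgfrb*. For *Vim* they were *Srpr* (r = 0.977), a receptor of the signal recognition particle, *Fam114a1* (r = 0.965) and *Adamtsl5* (r = 0.961). For *Acta2* they were *Zfp9* (r = 0.981), *Actg2* (r = 0.975), the enteric smooth muscle actin, and *D030025P21Rik* (r = 0.973). For *Pdgfrb* they were *Itga5* (r = 0.990), the alpha subunit of the fibronectin receptor, *Helz2* (r = 0.989) and *Epb4.1l1* (r = 0.988).

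Ratios within a culture were computed for all 45 pairs, after the values had been seen, and are given without a test. In 3 of 45 the groups did not overlap. *Tagln* to *Fn1* was 8.37, 6.25, 16.3 and 5.79 in control cultures 3, 7, 14 and 21, and 4.70, 3.54, 5.08 and 4.70 in GDNF cultures 6, 12, 17 and 22. The mean log2 ratio was lower after GDNF by a difference of -0.91, and by -0.59 without control culture 14. Every control was above every GDNF culture.

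*Tagln* to *Pdgfrb* was 13.2, 9.04, 20.5 and 9.50 in the controls and 5.63, 8.10, 8.23 and 8.17 after GDNF (difference in mean log2 ratio -0.73, and -0.49 without control culture 14). *Pdgfra* to *Zeb1* was 1.30, 1.22, 1.47 and 1.27 in the controls and 1.08, 0.991, 0.899 and 0.881 after GDNF (difference in mean log2 ratio -0.45). Within the cultures with *Xist* RNA the differences were -0.83, -0.70 and -0.28 for the 3 ratios, and within those with Y-linked RNA -0.99, -0.77 and -0.62.

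As background, the ratio to *Tagln* separated the groups for 1.42% of 16014 genes, to *Fn1* for 1.32%, to *Pdgfrb* for 1.67%, to *Pdgfra* for 2.19% and to *Zeb1* for 0.899%. Length moved with the *Tagln* ratios, since its transcript has 1586 bases and that of *Pdgfrb* 5413. Of 2539 tested genes with transcripts of at least 5000 bases, 3.47% had a ratio to *Tagln* that was higher in every GDNF culture than in every control, against 1.37% of all genes. *Pdgfra* and *Zeb1* are of like length, 6553 and 5806 bases, and 5.4% of such long genes were higher relative to *Pdgfra* in every GDNF culture. The part of transcript length in these ratios was not tested.

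**Figure D4:**
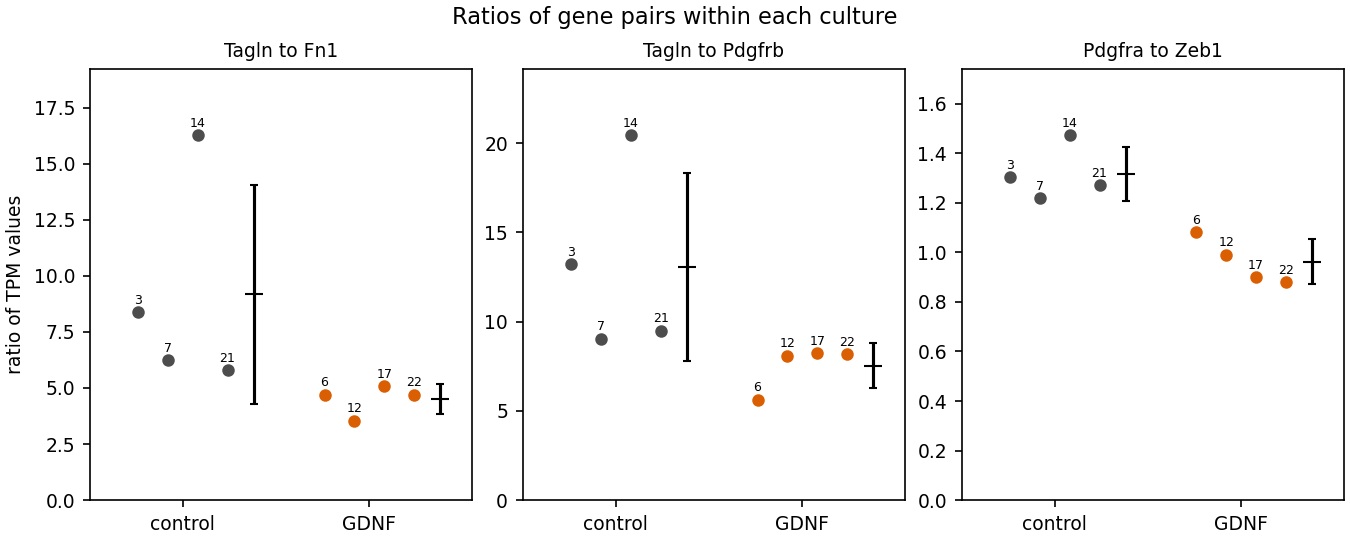
Ratio of TPM values within each culture (vertical axes) for *Tagln* to *Fn1*, *Tagln* to *Pdgfrb* and *Pdgfra* to *Zeb1*. Points are cultures, numbered as in the text, and bars are means with the SD. All GDNF cultures lie below all controls in each panel.

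Further regulators of the transition, 9 of 10 of them tested, gave no gene at an unadjusted p of 0.05, with a median log2 fold change of -0.051. *Tcf4*, an E-protein partner of *Twist1*, had 0.28, *Twist2* -0.57 and *Snai3* -0.81 (edgeR adjusted p = 0.362, 0.450 and 0.455). *Gsc* was below the filter, with at most 8 counts in a culture. Of 14 smooth muscle genes, 0 were past that threshold in either direction, and *Tpm1*, a tropomyosin, was nearest at -0.61 (edgeR unadjusted p = 0.0603, adjusted p = 0.242), followed by *Tpm2* at -0.67 and the factor *Srf* at -0.27. These 3 were all below 0, but the 14 genes were split, with 7 above 0 and 7 below. Their median log2 fold change was 0.057.

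Of 17 fibroblast matrix genes, 0 were above and 2 below at an unadjusted p of 0.05, with 12.9% of all genes below, and the median was -0.32. *Lum*, the gene of the collagen-binding proteoglycan lumican, had -1.30 (edgeR unadjusted p = 0.00552, adjusted p = 0.167), did not overlap between groups in CPM but did in TPM, and was called by DESeq2. *Fap*, the fibroblast activation protein, had -0.67 (edgeR adjusted p = 0.180), and *S100a4* -0.73 (adjusted p = 0.243). The list did not move as 1, since 11 of the 17 genes were below 0 and 6 above, *Col1a1* at 0.43 and *Tnc* at 0.63 among them.

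Of 12 genes of renal stroma and pericytes, *Cspg4*, the pericyte proteoglycan NG2, had 0.72 and *Gli1*, a Hedgehog target of perivascular cells at no more than 0.158 TPM, had 1.73, while *Tcf21*, a stromal factor, had -0.67 (edgeR adjusted p = 0.216, 0.203 and 0.216). Thus 2 of 12 were past the unadjusted p upward, beside 9.25% of all genes, and 1 downward. Among 6 adhesion and protease genes none was, with *Ncam1* at 0.57, *Cdh2* at -0.82 and *Mmp2* at 0.39.

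Summed levels of marker lists were set beside those of the 10 genes in each culture. The summed CPM of the 10 genes was lowest in GDNF culture 6 at 1958 and in control culture 3 at 2093, and reached 5863 in control culture 14 and 5976 in GDNF culture 12. *Fn1*, whose reads enter the count of each of its 7 transcripts, gave 4181 of the 5976 CPM in GDNF culture 12, and without it the sum was 3416 CPM in control culture 14 and 1794 CPM in GDNF culture 12. The sum of 20 epithelial genes, all detected, was lowest in control culture 14 at 755 CPM and highest in control cultures 3 and 21 at 4754 and 4587 CPM, with 1345 to 2521 CPM after GDNF. *Krt8* and *Krt18* gave 1041 and 1074 CPM of this in control culture 3, and 1315 and 1216 CPM in control culture 21. Among the 20 genes, *Cldn4* had a log2 fold change of -1.15, *Krt8* -1.45 and *Grhl1* 0.64 (edgeR adjusted p = 0.191, 0.216 and 0.220). The sum of 5 podocyte genes followed the stromal genes, with 59.2 CPM in control culture 3 and 55.1 CPM in GDNF culture 6 as the lowest and 257 CPM in control culture 14 as the highest. *Wt1* and *Synpo* had log2 fold changes of 0.64 and 0.32 (edgeR adjusted p = 0.423 and 0.715).

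**Figure D5:**
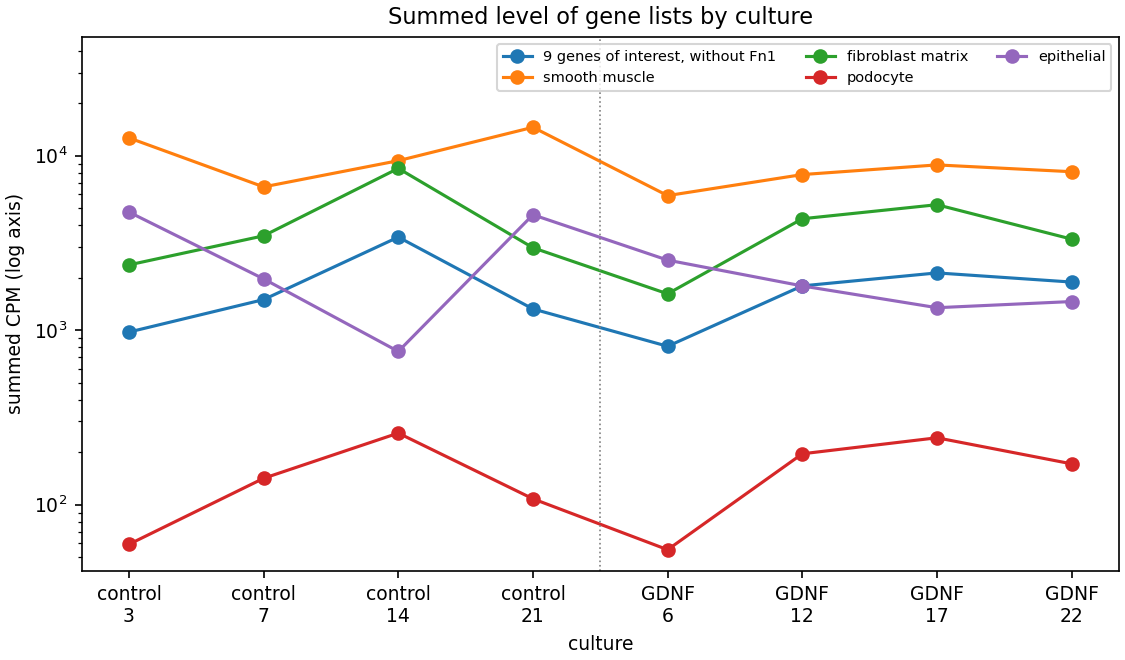
Summed CPM (log axis) of the 10 genes without *Fn1* and of 4 marker lists in each of the 8 cultures, with controls left of the dotted line. Points are cultures, and lines join the points of a list without implying an order. The epithelial sum is lowest, at 755 CPM, in control culture 14, where the fibroblast matrix and podocyte sums are highest. *Tpm1* makes up most of the smooth muscle sum. It gives 12454 of 14556 CPM in control culture 21, where that sum is highest, and 10972 of 12657 CPM in control culture 3. Reads shared by transcripts of a gene enter the count of each, so summed CPM does not rank genes by level. The control mean of *Tpm1* was 8625 CPM and 1022 TPM, beside 285 CPM and 238 TPM for *Vim*.

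Endothelial markers were low, from 50.1 to 98.3 CPM in controls and 69.3 to 118 CPM after GDNF over 6 genes, of which *Cdh5* was below the filter. *Flt1* at 0.81 and *Tek* at 2.69 were the 2 past an unadjusted p of 0.05 (edgeR adjusted p = 0.167 and 0.193). Both were upward, beside 9.25% of all genes tested in that direction. *Tek* was near the floor, at no more than 0.258 TPM in any culture and 0 TPM in control culture 3. *Kdr* had -0.75 (edgeR adjusted p = 0.440). Leukocyte markers summed to 8.39 to 28.4 CPM in controls and 10.4 to 28.3 CPM after GDNF, with *Lyz2* at 2.10, *Csf1r* at 0.37 and *Ptprc* at -0.18, and *Cd3e* had 0 counts. *Lyz2* was uneven (edgeR adjusted p = 0.317), at 8.87, 1.36, 35.0 and 0.446 TPM in GDNF cultures 6, 12, 17 and 22. In control cultures 3, 7, 14 and 21 it was at 3.54, 0.507, 2.69 and 0.642 TPM. Glial genes summed to at most 7.98 CPM in controls and 9.64 CPM after GDNF, with *Sox10* at 0 counts and *S100b* at -0.49. The erythroid sum was at most 2.86 CPM, with the 3 globin genes below the filter and *Alas2* at 0.75. The part of cell mixture in the values of the 10 genes was not tested.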

How the data were processed

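Per the labels and methods, RNA from 4 GDNF and 4 control cultures was made into SMART-Seq v4 libraries with poly-A selection, and the processing notes of the submitters name mm10, STAR, featureCounts and DESeq2, without versions. The authors deposited unnormalized counts per RefSeq transcript. The FPKM deposited by the authors was used only for transcript length, and their TPM is scaled to length and to a fixed total. Strand handling and the rule for shared reads are not given in the sources used here, and reads shared by transcripts of a gene enter the count of each.

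Counts were summed per symbol and fitted with edgeR 4.0.16 in R 4.3.3 (filterByExpr, TMM, quasi-likelihood test, Benjamini-Hochberg over 16557 genes). The SE is the absolute log2 fold change divided by the square root of F. TPM was read from each gene's most counted transcript and compared by exact permutation over 70 assignments. DESeq2 1.42.0, limma-voom (limma 3.58.1), other scalings, filters, units and pseudocounts, a term for *Xist* or Y-linked RNA, and leaving out cultures were alternatives. The fits were first tested on simulated data, in which 200 of 16557 genes were changed. At 2-fold, edgeR recovered 20.5% of the changed genes, DESeq2 52.5% and limma-voom 18%. Genes that had not been changed made up 12.8%, 31.4% and 5.3% of their calls. At 4-fold the recovered shares were 76.5%, 84.5% and 74.5%, and the unchanged shares of calls 4.4%, 20.7% and 6.9%. SciPy 1.17.1 was used for the exact tests.

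The 10 genes, 12 other gene lists and 6 pairs were chosen with earlier results of these data known. Named besides were up to 3 genes per list with the smallest unadjusted p, listed markers at 0 or below the filter, and the 3 genes most like *Vim*, *Acta2* and *Pdgfrb*. Single values of 4 listed markers are not reported here.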

Additional observations from a re-analysis of the deposited data

Results flagged for a closer look

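Of 48 groups of 4 values examined, 2 held a culture far from the rest of its group, and chance flags about 1 in 20 such groups. For *Vim*, GDNF culture 6 was at 212 TPM, whereas the other GDNF cultures were at 318 to 338 TPM. For *Tagln*, control culture 14 was at 1095 CPM, whereas the other controls were at 256 to 384 CPM.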

How the results depend on the processing

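No paired analysis was run, because the culture numbers give no pairing. Whether a GDNF and a control culture came from the same preparation is not given in the sources, so pairing is unknown. In 190 refits of the 10 genes under 19 alternatives, none was called (smallest adjusted p 0.178) and 18 changed sign; *Fn1*, *Pdgfrb*, *Zeb1* and *Twist1* did not, with ranges of 0.46 to 0.94, 0.15 to 0.62, 0.13 to 0.68 and -0.52 to -0.17 when a culture was left out. DESeq2 called 1346 genes in all and 4 list genes (*Lum*, *Pdgfd*, *Cldn4* and *Flt1*), where edgeR called 0. On simulated data with 2-fold changes, unchanged genes made up 31.4% of DESeq2 calls and 12.8% of edgeR calls. Genes at an unadjusted p of 0.05 numbered 2192 to 4104 with a culture left out, against 3665. Of the 10, 1 gene (*Fn1*) passed that p with limma-voom (log2 fold change 0.74) and without both control culture 3 and GDNF culture 6 (0.76), and 0 to 1 with a culture left out, by edgeR and by TPM alike.

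Signs turned as follows, all without a call, and the cause was not tested. With limma-voom *Vim* was 0.050 and *Acta2* 0.24; with library size only *Vim* 0.15, *Acta2* 0.14, *Pdgfra* 0.029 and *Snai2* 0.14; with the *Xist* or Y-linked term *Acta2* 0.047; with length offsets *Vim* 0.073 and *Snai2* 0.059; without control culture 3 and GDNF culture 6 *Vim* 0.020. With a culture left out, the ranges were -0.19 to 0.10 for *Vim*, -0.30 to 0.57 for *Acta2*, -0.73 to 0.25 for *Tagln*, -0.39 to 0.27 for *Pdgfra* and -1.39 to 0.57 for *Postn*. In TPM the ranges of the difference were -138 to 169 for *Tagln*, -0.622 to 3.25 for *Pdgfra*, -0.626 to 0.991 for *Twist1* (-0.604 without both cultures) and -10.7 to 7.43 for *Postn*. In CPM the differences were -12.6 for *Vim*, -14.0 for *Acta2*, -6.66 for *Pdgfra*, -1.56 for *Twist1* and -2.49 for *Snai2*. On log2(TPM + 1) they were 0.076 for *Tagln* and 0.013 for *Postn*, and with a pseudocount of 0.1 they were 0.076 and 0.047.

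On log2(TPM + 1), 4 of the 6 pairs passed and r for *Twist1* and *Snai2* was 0.19. Without the 2 farthest cultures, chosen for each pair by its first gene, 1 passed and r for *Fn1* and *Postn* was -0.062. The V region difference ran from -0.440 to -0.266 percentage points with a culture left out, at exact permutation p of up to 0.0857, and was -0.336 without both cultures (exact permutation p = 0.1, the smallest 3 against 3 allows); groups stayed apart. The ratios, the segments, the length offsets and the omission of both cultures were alternatives or measures chosen after seeing the data.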
